A study of Mus musculus with 71 samples.

Results

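The 157 genes described here are the numbered zinc finger protein genes (Zfp genes) of the mouse that were well covered in a SLAM-seq experiment on embryonic stem cells. They were chosen by name, as Zfp followed by a number alone, and by coverage, as genes whose mean number of sequenced T positions exceeded 1000 over the s4U-labelled libraries of each treatment. Zfp36, Zfp42, Zfp397 and Zfp819 were left out by name. The tables hold 336 such names among 21527 genes, and 8105 genes of any name passed the same coverage limit. All cells were male mESC grown in 2i/LIF, 1 cell line in all groups. In SLAM-seq, cells take up the uridine analogue 4-thiouridine (s4U), and after alkylation by iodoacetamide each s4U is read as C in place of T. The loss of these conversions after a wash into uridine is used to follow the decay of the labelled RNA. The rate used here is conversions over covered T positions, so changes in a gene's level over the chase also enter into it. Such changes were not corrected for. Cells received 100 µM s4U for 24 h and were then chased with uridine for 0, 1, 1.5, 2.3, 3.5, 5.3, 8 or 12 h. DMSO (0.2%) or 20 µM STM2457 in DMSO was present from 6 h before the chase until collection, so that the treatment lasted 6 h at the first and 18 h at the last time point. STM2457 inhibits Mettl3, the enzyme that writes N6-methyladenosine (m6A) into mRNA. Each treatment had 4 libraries per time point, except 3 for STM2457 at 3.5 h, and 4 libraries from cells without s4U, which gives 71 libraries, 63 of them labelled. The study's methods describe its replicates as independent biological ones, while the labels do not tie libraries to cultures, and p-values measure the spread between these libraries.

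Most Zfp genes encode proteins with tandem C2H2 zinc fingers, each a short fold held by a zinc ion that reads a few bases of DNA, and an array of fingers recognises a longer sequence. Many of them also carry a KRAB box, which recruits the co-repressor Trim28 and, through it, histone methylation and heterochromatin proteins. KRAB zinc finger genes are among the largest families of mammalian transcription factors, lie in clusters that arose by duplication, and in embryonic stem cells are known for silencing retroelements and protecting imprinted regions. Messenger RNAs of transcriptional regulators are known as a short-lived class. Methylation by Mettl3 is placed mostly in the sequence context GGAC followed by A, C or T, with many sites around stop codons, and m6A is known to promote mRNA decay.

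The libraries held a median of 5726508 reads on the 3′ UTR windows of all genes, the smallest 4539726 and the largest 7368244. The 157 genes took 0.511% to 0.624% of these reads. Of 12 listed markers of pluripotent cells, 11 had data, Sox2 being the exception, and all 11 were detected. Their summed level ranged from 4057 to 5919 CPM (counts per library scaled to a common total) over the DMSO libraries and from 4801 to 5800 over the STM2457 libraries. Dppa5a had a mean of 2690 CPM, while Klf4 (2.80) and Prdm14 (1.31) were low. The 5 markers of primed or formative cells summed to 206 to 395 CPM in DMSO and 132 to 316 in STM2457. The 7 of endoderm and mesoderm summed to 17.4 to 96.2 and 19.3 to 72.1 CPM. The 6 fibroblast feeder markers summed to 4.09 to 21.2 and 5.51 to 23.2 CPM in the same order, with Postn at 0 in every library. The 7 markers of 2-cell-like cells summed to at most 3.11 CPM, with Zscan4f at 0 in every library. Replicates were compared in 105 pairs, and in each the counts differed by more than counting error gives (lowest chi-square over its degrees of freedom 2.82), so every library was counted as a sample of its own.

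The motif GGAC with A, C or T as its last base, searched on the sense strand of 1 mature GENCODE M21 transcript per gene, stood within 100 bases of the stop codon in 61 of 150 members that have such a window (40.7%). The share was 58.6% over the genes past the coverage limit and 55% over all coding genes. The 7 windows below belong to the members with the largest called rises (first 4) and falls (last 3) in reads under STM2457 among those that hold a match, and show the match nearest the stop codon. They are 21 bases long, are written 5′ to 3′ on the sense strand, and the capitals mark the matched letters. Positions are on GRCm38. The match of Zfp141 lies in the coding sequence, 37 bases from the stop codon's end, at chr7:42475016-42475036 on the minus strand. The match of Zfp57 lies in the coding sequence, 4 bases from the end, at chr17:37010507-37010527 on the plus strand. The match of Zfp703 lies 39 bases from the end in the coding sequence, at chr8:26980045-26980065 (plus), and that of Zfp553 lies 9 bases from the end in the coding sequence, at chr7:127237031-127237051 (plus). Among the genes that fell, the match of Zfp365 lies 77 bases past the stop codon in the 3′ UTR, at chr10:67888743-67888763 (minus). The match of Zfp346 lies in the coding sequence, 22 bases from the end, at chr13:55132362-55132382 (plus). The match of Zfp523 lies 11 bases past the stop codon in the 3′ UTR, at chr17:28205210-28205230 (plus). A match is a stretch of letters and no measured site of methylation.
Zfp141: tttgctaaGGACTcatctctc
Zfp57: gaagattcGGACTgatttctg
Zfp703: cactgtatGGACAgagactag
Zfp553: caccagctGGACTggagtgat
Zfp365: gtccttttGGACAtgtagccg
Zfp346: actccaaaGGACTcaagcaca
Zfp523: gcccaagaGGACCagctccca

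Coverage chose the members, and its values are a description. Zfp979 had the highest mean number of covered T positions, with 28399 in DMSO and 30510 in STM2457, followed by Zfp207 with 27820 and 24923 and Zfp428 with 20119 and 20042. Just inside the limit stood Zfp707, with 1010 in STM2457, and Zfp454, with 1016 in DMSO, and just outside stood Zfp60, with 994 in STM2457, and Zfp658, with 991 in STM2457. The members were less covered than the other genes past the limit, with medians of 2668 covered T positions in DMSO and 2794 in STM2457 against 4864 and 5174 over all genes past it. Their rates of conversion therefore rest on fewer positions than those of a typical gene set beside them.

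The protein architecture of the members was read from sequence. The name Zfp stands for zinc finger protein, so the presence of fingers follows in part from the rule on names. Translation of the GENCODE M21 transcripts gave a protein for 156 of them, the exception being Zfp267. A C2H2 finger motif was found at least once in 152 proteins and 4 times or more in 134, with a median of 9.5 fingers. Zfp142 had the most, 40. No finger motif was found in 4 proteins, among them Zfp365 and Zfp703. A KRAB motif was found in 60 members, of which 37 lie in clusters. Among the others, 76 had 4 or more fingers and 20 had fewer than 4. The motif search can miss divergent boxes: Zfp57, which is known to carry a KRAB box, was not matched. Chromosome 7 holds 29 members, chromosome 17 holds 18 and chromosomes 4 and 8 hold 15 each. Zfp275 is the member on the X chromosome. With a gap of at most 500 kb between neighbours, 52 members lie in 12 clusters of 3 or more. The largest spans chr17:32765496-33394641 and holds 7 members, each with a KRAB motif (Zfp871, Zfp870, Zfp472, Zfp952, Zfp763, Zfp81 and Zfp101). The next spans chr7:127233061-127885996 and holds 6, of which 1 has the motif.

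Members of a young cluster can be near-copies, and the authors let reads map to up to 100 places. The median member had 0.341% of its reads mapped to more than 1 place. For 14 members the share was at least 20%, and for 6 it was at least 50%. These are Zfp987 (98.1%), Zfp992 (96.7%), Zfp975 (90.8%), Zfp825 (90.3%), Zfp638 (77.5%) and Zfp946 (61.3%). The reads of these 6 genes that mapped to several places cannot be assigned to 1 of them, and the values of these genes are uncertain.

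The label of the Zfp mRNAs was lost fast. Pooled over the members, the rate of T-to-C conversion per covered T at the onset of the chase was 1.34% ± 0.0279 in DMSO and 1.23% ± 0.0863 in STM2457 (SD over 4 libraries each). The unlabelled libraries, which give the background of sequencing errors, stood at 0.0992% ± 0.00522 (n = 4) and 0.0989% ± 0.0137 (n = 4). After subtraction of that background, the label that remained in DMSO relative to 0 h was 81.7% ± 5.03 at 1 h, 65.2% ± 3.6 at 1.5 h, 59.6% ± 4.21 at 2.3 h and 41.7% ± 2.20 at 3.5 h (SD, n = 4 each). It dropped to 5.90% ± 0.404 at 5.3 h, and was 2.76% ± 0.567 at 8 h and 1.36% ± 0.913 at 12 h. In the last pair of time points the rates were near the unlabelled background, and values there carry little about single genes. The other genes past the coverage limit kept more label in the same libraries: 72.5% ± 2.69 at 3.5 h, 35.7% ± 2.55 at 5.3 h and 15.6% ± 0.843 at 12 h in DMSO. The difference between the Zfp genes and the others was −8.59 percentage points ± 1.07 at 1 h, −30.8 ± 1.86 at 3.5 h and −14.3 ± 1.44 at 12 h (SD, n = 4). It was negative in every library at each time point after 0 h, in both treatments.

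**Figure D1:**
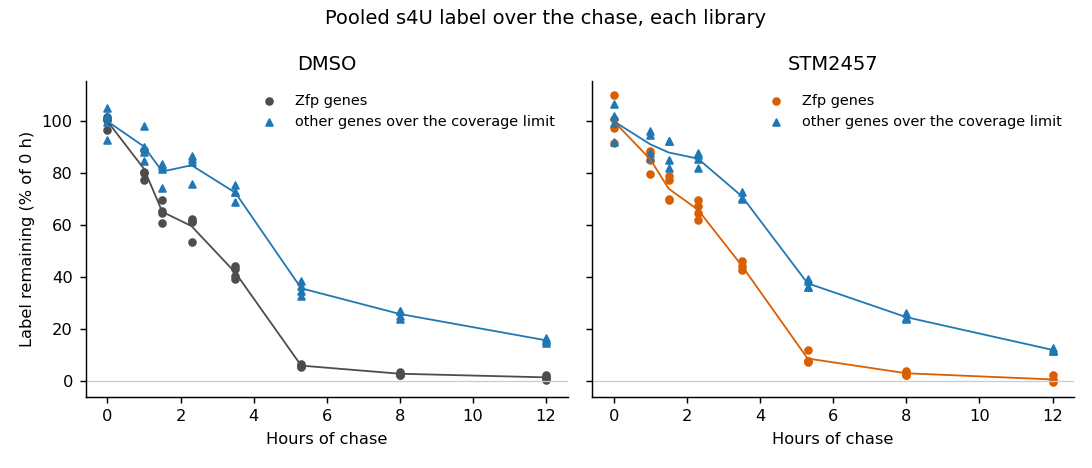
Label remaining in each library, in percent of the mean at 0 h after subtraction of the unlabelled rate, against hours of chase, for DMSO (left) and STM2457 (right). Circles are the conversions pooled over the 157 Zfp genes, triangles those pooled over the other genes past the coverage limit, and lines join the means. At 5.3 h in DMSO the Zfp genes stood at 5.90% and the other genes at 35.7%.

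Under STM2457 the pooled label of the Zfp genes remained higher at some of the time points. At 1.5 h, the 4 DMSO libraries held 60.8%, 69.6%, 64.8% and 65.4% of the label, and the 4 STM2457 libraries held 69.9%, 79.1%, 77.3% and 69.8%. The ranges did not overlap, with means that differed by 8.87 percentage points. Before scaling to 0 h, where the rate was 1.34% in DMSO and 1.23% in STM2457, the conversion rates at 1.5 h overlapped, with means of 0.907% and 0.938%. At 5.3 h the DMSO libraries held 5.69%, 5.54%, 5.88% and 6.47%, and the STM2457 libraries 7.62%, 7.55%, 11.9% and 7.43%, again without overlap, with replicate 3 of STM2457 apart from the rest. At 1, 2.3, 3.5, 8 and 12 h the ranges overlapped, and the means differed by 3.62, 6.33, 2.72, 0.181 and −0.803 percentage points. In the same libraries the label of the other genes past the coverage limit at 1.5 h stood at 80.7% ± 4.22 in DMSO and 88.0% ± 5.2 in STM2457.

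Half-lives were fitted per gene as an exponential decay fixed at 1 at 0 h. The pooled label dropped most between 3.5 and 5.3 h, in both treatments. In DMSO it went from 41.7% to 5.90% for the members and from 72.5% to 35.7% for the other genes past the coverage limit. A single exponential does not trace this step, and its cause was not tested. Of the members, 132 passed the filters in both treatments. The remaining 25 are not described by a half-life: 24 had a residual standard error over 0.3 in at least 1 treatment and 1 had a half-life outside 0.67 to 18 h. The median half-life of the 132 was 2.05 h in DMSO, with quartiles of 1.57 and 2.59 h, and 2.35 h in STM2457, with quartiles of 1.94 and 3.09 h. The medians over all 7394 genes that passed were 3.19 and 3.45 h, and those over the 6819 genes past the coverage limit were 3.29 and 3.53 h. Of the 132, 117 were shorter-lived in DMSO than the median gene (88.6%). Half-lives under 2 h in DMSO were found for 65 members (49.2%), against 15.2% of all genes and 12.3% of the genes past the coverage limit. To give the replicate error, half-lives were also fitted in 4 series of libraries per treatment, each made of the libraries with 1 replicate number, where 87 members had a value in all 8 series. Their median in the DMSO series was 2.29, 2.29, 2.37 and 2.26 h, and that of the 5761 genes measured in all series was 3.44, 3.30, 3.47 and 3.43 h. The members were thus shorter-lived in each DMSO series by a ratio of 0.659 to 0.693.

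The shortest DMSO half-lives were those of Zfp235 (0.764 h), Zfp958 (0.839 h) and Zfp748 (0.845 h), 3 genes with a KRAB motif and 13 to 23 fingers. For Zfp748 the label that remained in DMSO was 50.2% at 1 h, 20.4% at 1.5 h and 9.77% at 2.3 h. Its 3 DMSO series that could be fitted gave 1.35, 0.761 and 0.970 h. For Zfp235, whose mean curve fell to 44.2% at 1 h and 17.2% at 1.5 h, only 1 DMSO series could be fitted and it gave 5.60 h, so that its half-life is poorly determined by single libraries. The longest half-lives were those of Zfp593 (5.84 h), Zfp787 (5.52 h) and Zfp771 (4.48 h). Zfp593, which takes part in the maturation of the large ribosomal subunit, has a single finger motif and gave 7.35, 5.93, 5.34 and 4.75 h in the 4 DMSO series. The best covered member, Zfp979, gave 2.16, 2.67, 2.63 and 2.83 h in DMSO and 2.38, 2.36, 2.67 and 2.48 h in STM2457.

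Split by architecture, the 49 KRAB-motif members that passed decayed with median half-lives of 1.84 h (DMSO) and 2.22 h (STM2457). The 67 without the motif and with 4 or more fingers had 2.05 and 2.34 h, and the 16 with fewer than 4 fingers had 2.86 and 3.35 h. Short half-lives were not particular to genes called Zfp: the 107 other genes with 4 or more C2H2 fingers that passed had medians of 1.90 and 2.33 h, and 30 Zfp genes at or under the coverage limit had 1.59 and 1.64 h. Within the families named otherwise, the median was 2.08 h for 18 Zbtb genes, 1.73 h for 9 Zscan and Zkscan genes and 1.83 h for 12 Klf genes in DMSO. By position, the 5 measured genes of the largest chromosome 17 cluster had medians of 1.34 h (DMSO) and 1.23 h (STM2457), and the 5 of the chromosome 7 cluster next in size had 1.65 and 2.66 h.

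**Figure D2:**
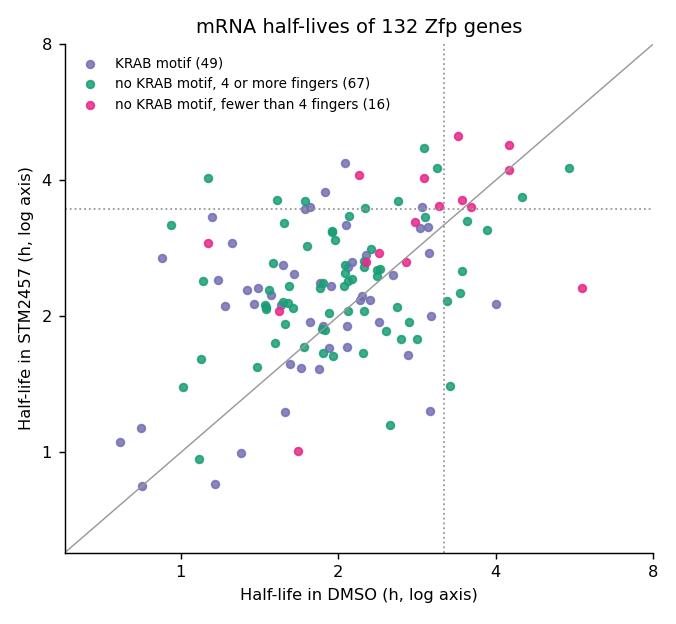
Half-life in STM2457 against half-life in DMSO, both in hours on log axes, for the 132 members that passed, coloured by architecture. The diagonal marks equal half-lives and dotted lines the medians of all genes that passed, 3.19 h and 3.45 h. Of the points, 86 lie above the diagonal and 117 lie left of the vertical dotted line.

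The fitted half-life was longer in STM2457 for 86 members and shorter for 46 (65.2% longer), with a median log2 change of 0.20. Over all genes that passed, 56.7% were longer and the median was 0.07. By architecture the median log2 change was 0.27 for KRAB-motif members, 0.20 for those without it with 4 or more fingers and 0.19 for those with fewer than 4. It was 0.32 over the 107 other genes with 4 or more fingers. Over the 4 series the members' median came to 2.3 h ± 0.0491 (SD) with DMSO and to 2.59 h ± 0.181 with STM2457, where the 4 series gave 2.80, 2.67, 2.50 and 2.40 h. The lowest STM2457 series, which has no 3.5 h library, lay above the highest DMSO series, which was 2.37 h. Libraries of a series share a replicate number and no stated origin. For all genes it came to 3.41 h ± 0.0780 with DMSO and 3.57 h ± 0.251 with STM2457, with overlap. Relative to all genes in the same series, the log2 ratio of the member median was −0.57 ± 0.0332 in DMSO and −0.46 ± 0.0106 in STM2457, without overlap. These are descriptions of a group of genes that share libraries, and were not tested.

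No single Zfp gene passed a test on its half-life. With log2 half-lives per series as input, limma called 0 of 87 members at an adjusted p under 0.05, and 0 of the 5761 genes (percent called 0). With no adjustment 8 members had a p under 0.05, and the lowest adjusted p of a member was 0.668. The largest change by the mean curves was that of Zfp213, with a log2 change of 1.84. Its half-lives were 0.888, 1.46, 0.905 and 1.67 h in the DMSO series and 3.12, 2.67, 7.47 and 1.83 h in the STM2457 series, and limma over the series gave a log2 difference of 1.46 (SE 0.432), behind Zfp12 at 1.76 and Zfp985 at 1.47. The sign was opposite for Zfp593, which gave 5.26, 2.06, 2.13 and 1.58 h in the STM2457 series, a log2 difference of −1.23 (SE 0.372). For Zfp213 and Zfp593, the adjusted p by limma was 0.668. Zfp12, Zfp985 and Zfp213 were chosen after their values were seen.

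By role, the 6 of 7 RNA and ribosome factors that passed had median half-lives of 2.86 h (DMSO) and 2.93 h (STM2457), and the 6 members linked to pluripotency had 2.05 and 2.11 h. The 5 of 6 nuclear cofactors that passed had 2.24 and 3.11 h, with 4 longer and 1 shorter in STM2457. Among them Zfp532 had a fitted half-life of 1.57 h with DMSO and 3.22 h with STM2457. Zfp932, a silencer of retroviral elements, had 1.77 and 3.48 h, and Zfp598, which marks collided ribosomes, had 2.92 and 4.04 h. Fitted half-lives were shorter in STM2457 for Zfp574, with 2.73 and 1.94 h, and for Zfp296, with 2.64 and 1.78 h, both among the genes whose reads were higher. None of these differences passed the test on the series.

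The decay was also tested on the conversions themselves, with edgeR's quasi-likelihood test on conversion counts with the T coverage as offset. In DMSO the conversion rate declined along the chase in all 157 members (89.4% of 11424 genes tested were called). The slope of the difference between STM2457 and DMSO was called at an adjusted p under 0.05 in 2 members, against 5.93% of all genes. Zfp763, a KRAB-motif gene of the chromosome 17 cluster, declined less steeply in STM2457, by 0.377 log2 units per hour (SE 0.125, adjusted p = 0.0480). It did not pass the half-life filters, and the call was lost in 12 of 15 alternatives. Zfp850 declined more steeply, by −0.389 per hour (SE 0.123, adjusted p = 0.0346), and this rests on 12 h: without 12 h its value was 0.0709. Without DMSO replicate 3 the number of members called was 0. At 0 h, edgeR called 0 members and 0 genes for the conversion rate between treatments, with 0 members at an unadjusted p under 0.05, and limma also called 0 (percent called 0). At 5.3 h the rate was higher in 2 members and lower in 0 (1.38% of all genes called), at 8 h higher in 2 and lower in 1 (3.76%), and at 12 h higher in 0 and lower in 7 (7.65%). Restricting the slopes to 0 to 5.3 h, an alternative chosen after seeing the data that called 1.96% of all genes, called Zfp618 (0.66 per hour, adjusted p = 0.0346) and Zfp638 (0.25 per hour, adjusted p = 0.0239), both chosen after their values were seen. Of the reads of Zfp638, 77.5% mapped to more than 1 place.

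The levels of the Zfp mRNAs were compared from the reads. Averaged over the 8 time points, edgeR called 37 of the 157 members higher and 16 lower in STM2457 at an adjusted p under 0.01, 33.8% of them, against a background of 26.5% of the 12659 genes tested and 34.8% of the genes past the coverage limit. The share called was close to that of the genes past the limit. All 157 members passed the filter on low counts. The share called higher was 23.6% against 13.9% of all genes, and the share called lower was 10.2% against 12.6%. These shares by direction are set beside all genes, while the genes past the coverage limit were called more often in total. Coverage may thus enter into them, which was not tested. The median log2 change was 0.05, against −0.01 over all genes and −0.01 over the genes past the limit. Reads are relative to the library, and in bulk RNA fewer cells with a transcript and less of it per cell cannot be told apart. Of the 53 calls, 34 held in all 14 alternatives run, 19 were lost in at least 1, and 0 turned direction.

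**Figure D3:**
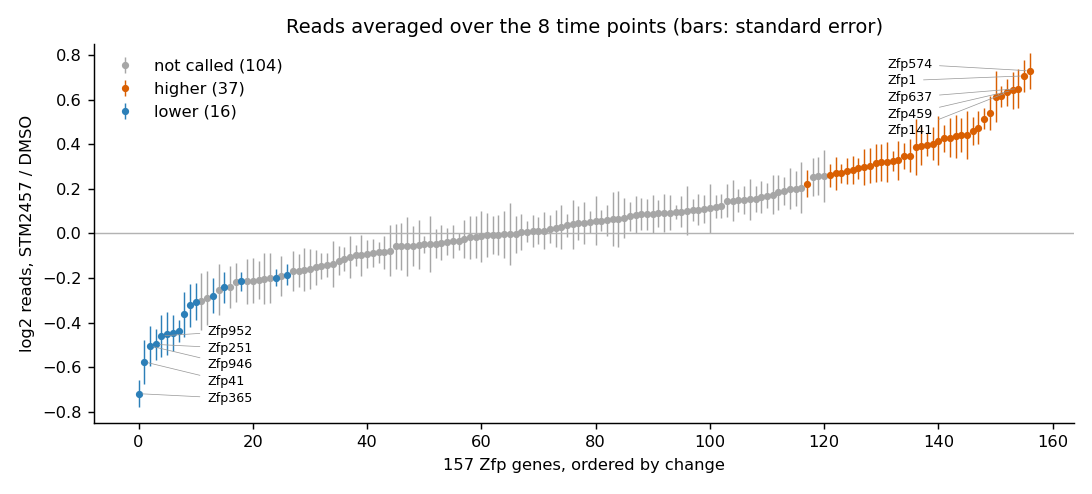
The log2 ratio of reads, STM2457 to DMSO, averaged over the 8 time points, for the 157 Zfp genes in order of the ratio. Bars are standard errors, orange marks the 37 called higher and blue the 16 called lower at an adjusted p under 0.01. The ends are Zfp574 at 0.73 and Zfp365 at −0.72.

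The counts were also taken by architecture, with no test of the difference. Of the 60 KRAB-motif members, 5 were higher and 7 lower (20% called, median −0.01). Of the 76 without the motif and with 4 or more fingers, 28 were higher and 6 lower (44.7% called, median 0.15). Of the 20 with fewer than 4 fingers, 3 were higher and 3 lower. Zfp267, with no coding transcript, was higher. By the same split, a match to the motif around the stop codon was found in 11 of 59 KRAB-motif members (18.6%), 36 of 73 with 4 or more fingers and no KRAB motif (49.3%) and 14 of 18 with fewer than 4 (77.8%). In the coding sequence, the median number of matches per kb was 1.71, 3.2 and 4.34 in the same order, and 4.14 over the genes past the coverage limit. Coverage moved along with the split, with median covered T positions in DMSO of 1953, 2861 and 5729, and its part in the counts of calls was not tested. Among the called members with a window, 17 of 35 that were higher (48.6%) and 5 of 15 that were lower (33.3%) held a match, against 39 of 100 that were not called (39%).

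**Figure D4:**
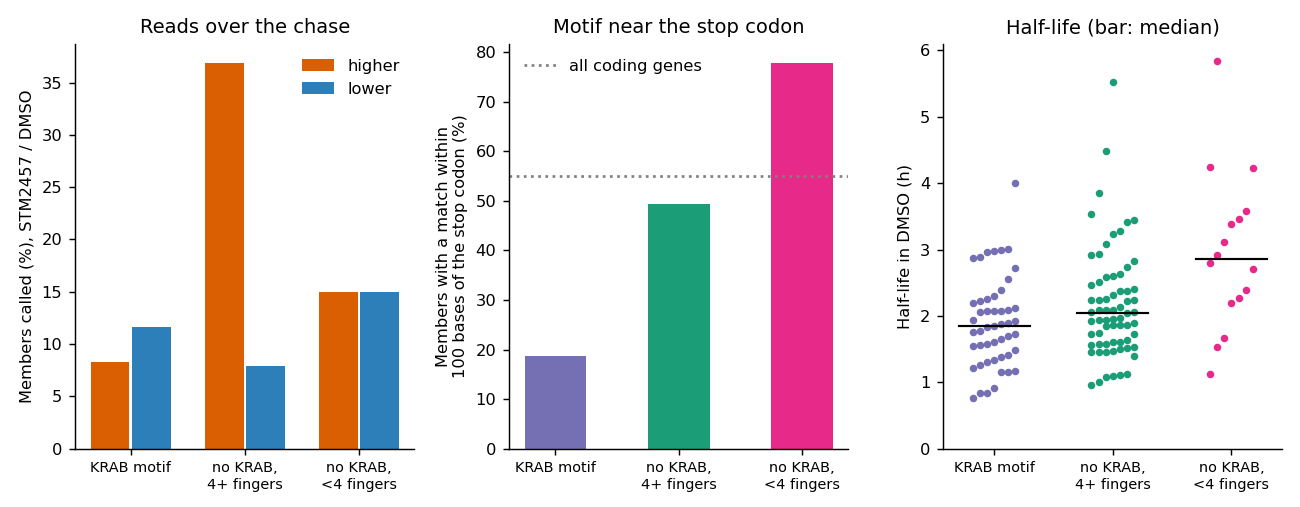
The members split by architecture: percent of members called higher (orange) or lower (blue) in reads averaged over the chase (left), percent with a motif match within 100 bases of the stop codon (middle, dotted line 55% of all coding genes), and half-life in DMSO in hours for each member that passed (right, black line the median). KRAB-motif members had the lowest share with a match, 18.6%, and a median half-life of 1.84 h.

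The rises were led by Zfp574, a gene of 18 fingers at chr7:25072567-25083492. At 0 h its 4 DMSO libraries held 36.2, 50.7, 51.1 and 62.6 CPM and its 4 STM2457 libraries 78.8, 89.0, 91.8 and 98.9. All 4 STM2457 libraries lay above all DMSO libraries, and in cells without s4U the same was seen, with 46.4, 45.2, 43.8 and 37.0 against 77.3, 90.2, 83.0 and 84.7. Averaged over the chase the log2 difference was 0.73 (SE 0.0807, edgeR adjusted p = 1.21e-11). At 12 h the ranges overlapped, with 37.3, 37.3, 59 and 42.3 against 80.1, 45.6, 54 and 59.3. Zfp1, a KRAB-motif gene on chromosome 8, held 16.5, 16.8, 15.5 and 18.5 CPM in DMSO and 31.1, 33.2, 39.1 and 38.3 in STM2457 at 0 h, and its average difference was 0.71 (SE 0.0703, adjusted p = 2.72e-13). Zfp141, whose stop-codon window is printed above, held 28.1, 25.6, 19.4 and 21.2 against 35.9, 36.6, 37.5 and 47.4 at 0 h, without overlap. It was higher by 0.63 on average (SE 0.0613, adjusted p = 1.02e-13) and by 1.02 in the unlabelled cells (adjusted p = 3.07e-05). Zfp637 rose by 0.65 and Zfp459, a KRAB-motif gene, by 0.64.

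The falls were led by Zfp365 at chr10:67886103-67912662, a gene in whose product no C2H2 motif was found. At 12 h the DMSO libraries held 46.9, 60.9, 49.9 and 51 CPM and the STM2457 libraries 17.1, 21.7, 20.3 and 20.8. The groups lay far apart, and the log2 difference at 12 h was −1.39 (SE 0.175, adjusted p = 8.13e-09). Over the whole chase it was −0.72 (SE 0.0615, adjusted p = 7.22e-16). Without s4U the treatments overlapped, with 24.4, 30.3, 24.7 and 31.1 against 29.5, 21.4, 22.8 and 26.6. Zfp251, a KRAB-motif gene, held 25, 24.9, 24.8 and 24.6 in DMSO and 13.7, 20.3, 14.3 and 16.8 in STM2457 at 0 h, without overlap, and fell by 0.50 on average (SE 0.0699, adjusted p = 1.79e-08). Zfp41 fell by 0.58, Zfp952 by 0.46 and Zfp946 by 0.50 on the same scale. Of the reads of Zfp946, 61.3% mapped to more than 1 place, and its call was lost in 1 alternative.

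Among the members with known roles, 1 of the 5 that silence retroelements or protect imprints was called on average over the chase, where 26.5% of all genes were called. It was Zfp57, which binds methylated imprinted regions and maintains them, and it was higher. At 12 h it held 9.87, 14, 6.32 and 13.2 CPM in DMSO and 14.1, 22.7, 32.6 and 29.97 in STM2457. Every STM2457 library lay above every DMSO library, and the average difference was 0.61 (SE 0.113, adjusted p = 8.27e-06). At 12 h alone its difference of 1.19 missed the threshold (adjusted p = 0.0102). Zfp445, which acts with Zfp57 at imprints, was at 0.10 (adjusted p = 0.289). Zfp809 and Zfp932, which silence retroviral elements, were at 0.08 (adjusted p = 0.373) and −0.16 (adjusted p = 0.162), and Zfp568, a repressor of a placental Igf2 promoter, at 0.01 (adjusted p = 0.920).

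Of the 6 members linked to the pluripotent state, 2 were called higher on average over the chase, Zfp296 and Zfp462, and 0 lower. Over all genes 13.9% were called higher, and of the genes past the coverage limit 34.8% were called in either direction. Zfp296, an embryonic stem cell factor, held 66.1, 57.8, 60.8 and 44 CPM in DMSO and 76, 91.3, 104 and 96.6 in STM2457 at 0 h. At 12 h it held 26.8, 24.5, 33.2 and 29.96 against 81.3, 65.3, 75.9 and 60.1. The groups lay apart at both times, and the gap was wider at 12 h, with log2 differences of 0.69 (SE 0.131, adjusted p = 0.000341) and 1.30 (SE 0.137, adjusted p = 2.65e-11). A direct test between the 12 h and 0 h differences did not call Zfp296. Its slope over all hours of chase, 0.0797 log2 units per hour, was called. Of the 11 pluripotency markers with data, 5 were called higher and 0 lower at 12 h, against 5.41% of all genes called. Klf4 (−0.14), Tdgf1 (−0.05) and Utf1 (−0.13) had negative log2 differences at 12 h and were not called. Averaged over the chase, Tdgf1 was called lower, at −0.44. The part of these markers in the change of Zfp296 was not tested. Zfp462 rose by 0.44 on average (adjusted p = 0.000156). Zfp281 (0.06), Zfp143 (0.15), Zfp148 (0.09) and Zfp217 (0.07), the last a binding partner of Mettl3, were not called.

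Among the nuclear cofactors, 3 of 6 were higher and 0 lower on average over the chase, against 13.9% of all genes higher. Zfp592, a subunit of a Zmynd8-containing complex, was higher by 0.44 (SE 0.0756, adjusted p = 2.11e-06), while its partners Zfp687 and Zfp532 stood at 0.01 and 0.04 and were not called. Zfp292 was higher by 0.27 (adjusted p = 3.76e-07). Zfp335, a subunit of histone methyltransferase complexes, stood at 0.39 (adjusted p = 0.00995), a call lost in 11 of the 14 alternatives. Zfp618 was at −0.00. Of the 7 members that act on RNA or ribosomes, 0 were called by edgeR on average over the chase, with Zfp622, Zfp830 and Zfp326 at an unadjusted p under 0.05. They are Zfp598, which marks collided ribosomes, Zfp622 and Zfp593 of large-subunit maturation, the splicing factor Zfp830, and Zfp326, Zfp106 and Zfp638. By edgeR their log2 differences ranged from −0.17 for Zfp326 to 0.12 for Zfp830. At 12 h alone Zfp830 was called higher, by 0.71 (adjusted p = 0.000795). Zfp207, which stabilises the kinetochore protein Bub3, was lower by 0.20 (SE 0.0399, adjusted p = 4.1e-05), and the ubiquitin ligase Zfp91 stood at −0.10 (adjusted p = 0.0866). Zfp740, Zfp13 and Zfp263 were not called. Zfp275, the X-chromosomal member, was higher by 0.30 (adjusted p = 0.00139).

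**Figure D5:**
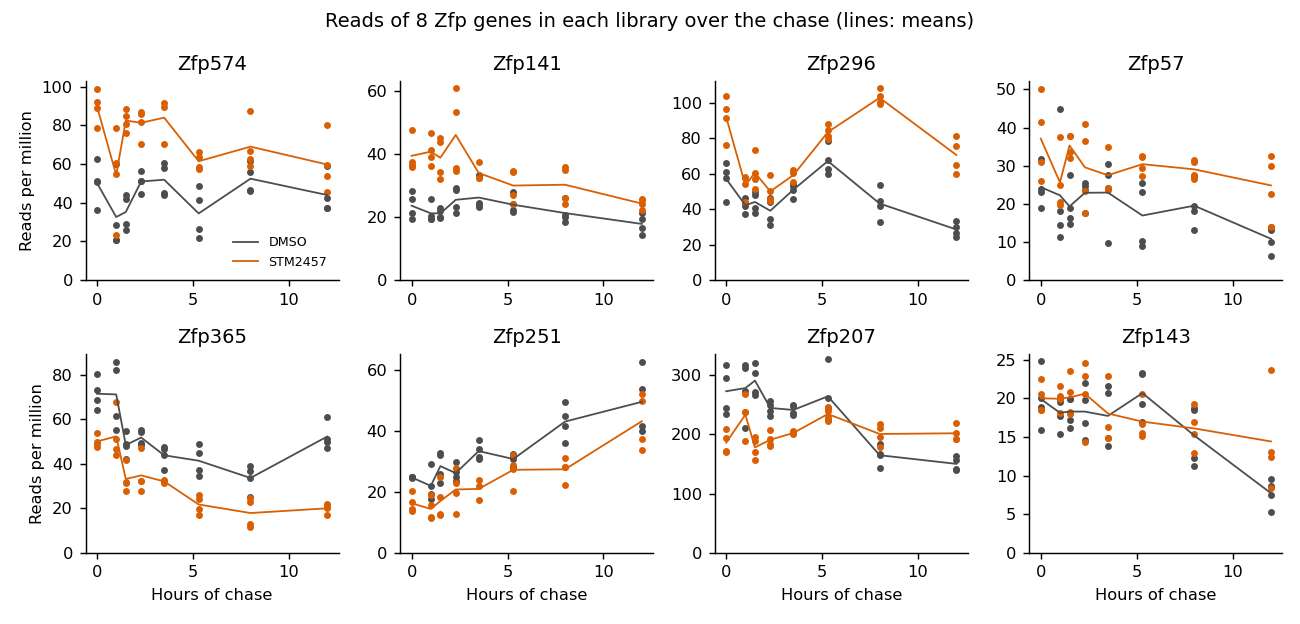
CPM in each library against hours of chase for 8 Zfp genes, DMSO in grey and STM2457 in orange, with lines through the means. Zfp574, Zfp141, Zfp296 and Zfp57 were higher and Zfp365 and Zfp251 lower in STM2457 on average, while Zfp207 changed from lower to higher in STM2457, and Zfp143 was level at 0 h and higher in STM2457 at 12 h. The axes start at 0 and differ between genes.

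Most single time points gave few calls. At 0 h, after 6 h of treatment, 5 members were higher and 1 lower, with 1.68% of all genes called. They were Zfp1 (1.07), Zfp516 (1.01), Zfp141 (0.74), Zfp296 (0.69), Zfp639 (0.51) and, lower, Zfp207 (−0.55). The call of Zfp639 was lost in 12 of 14 alternatives, that of Zfp516 in 9 and that of Zfp141 in 6. At 1 h 3 were higher and 0 lower (1.53% of all genes), at 2.3 h 3 and 0 (1.61%), at 5.3 h 2 and 1 (4.45%) and at 8 h 3 and 2 (2.34%). At 1.5 h the calls rose to 10 and 3, in step with all genes, of which 8.18% were called. At 3.5 h edgeR called 0 members, with 1.30% of all genes called and 25 members at an unadjusted p under 0.05. DESeq2 was not run at that time. At 12 h 10 were higher and 3 lower (5.41% of all genes). The 12 h rises included Zfp459 (1.36), Zfp296 (1.30), Zfp65 (1.2), Zfp553 (0.93) and Zfp143 (0.90), and the falls were Zfp952 (−1.52), Zfp688 (−1.50) and Zfp365 (−1.39). Of the 13 calls at 12 h, 8 held in every alternative and 5 were lost in at least 1. Among these, Zfp207 was lost in 7 of 14 and Zfp143 in 4. In Zfp952 the 12 h libraries held 19.9, 21.2, 20.7 and 23.9 CPM in DMSO and 8.31, 4.63, 6.95 and 9.99 in STM2457, without overlap. In cells without s4U 5 members were higher and 2 lower, with 2.58% of all genes called. They were Zfp141, Zfp574, Zfp777, Zfp24 and Zfp553, and, lower, Zfp251 and Zfp207. These counts move when the libraries of 1 replicate number are left out in 1 treatment, at all time points and without s4U. Without STM2457 replicate 4 the 0 h count was 2, and without DMSO replicate 4 the 12 h count was 8. Without DMSO replicate 4 or STM2457 replicate 2 the unlabelled count was 2.

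For 9 members the difference between treatments had a linear slope over hours of chase at an adjusted p under 0.01 by edgeR, against 3.42% of all genes. Whether the change was steady was not tested. Zfp207 gives the plainest case. At 0 h it held 316, 295, 234 and 245 CPM in DMSO and 209, 193, 172 and 169 in STM2457, so that STM2457 was lower. At 12 h it held 156.5, 163.0, 141.2 and 139.7 in DMSO and 191.9, 192.3, 203.0 and 219.8 in STM2457, so that STM2457 was higher. The call of Zfp207 at 12 h was lost in 7 of 14 alternatives. Between the same times Zfp207 fell by 0.86 in DMSO (adjusted p = 1.24e-08), and in STM2457 its log2 change was 0.12 (adjusted p = 0.582). The change from 0 to 12 h differed between treatments by 0.98 log2 units (SE 0.158, adjusted p = 2.4e-05). Zfp936, a KRAB-motif gene, held 50.1, 50.2, 42.1 and 53.1 in DMSO at 0 h and 13.7, 21.6, 24.4 and 19.98 at 12 h, against 26.5, 31.4, 42.1 and 39.8 and then 34, 29.2, 29 and 32.5 in STM2457. Its interaction was 1.12 (SE 0.241, adjusted p = 0.00217). Of its reads, 45.5% mapped to more than 1 place. Those were the 2 members called for the interaction, against 1.11% of all genes. Downward slopes were found for Zfp688, Zfp775, Zfp952 and Zfp365, and upward ones for Zfp936, Zfp296, Zfp207, Zfp866 and Zfp65.

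Over the chase in DMSO alone, 22 members fell and 7 rose between 0 and 12 h, against 8.20% of all genes lower and 4.84% higher, and 12.2% and 6.19% of the genes past the coverage limit. Of the 60 KRAB-motif members, 14 fell and 1 rose, while of the 96 others with a protein, 8 fell and 6 rose. Zfp143, an activator of snRNA and housekeeping promoters, fell most: it held 18.9, 15.9, 24.8 and 20.1 CPM at 0 h and 5.24, 8.62, 9.57 and 7.45 at 12 h, a log2 change of −1.36 (SE 0.217, adjusted p = 1.7e-06). Zfp936 fell by 1.29, Zfp459 by 1.26 and Zfp830 by 1.2. The rises were led by Zfp551 and Zfp516, both at 1.41. Zfp551 went from 6.07, 4.92, 8.27 and 4.34 to 10.7, 12.1, 18.3 and 21.7 CPM, without overlap. In STM2457, 7 members fell and 1 rose between the same times, with 4.72% of all genes called, a count of 8 that dropped to 3 or 4 without any 1 of the STM2457 replicates. The member that rose was Zfp251 (1.41), which also rose in DMSO (1.00). The comparison over the DMSO chase and the comparisons between treatments at 0 and 12 h share the DMSO libraries, so a high or low DMSO group moves both. Over the same chase in DMSO, 6 of 11 pluripotency markers and 4 of 5 markers of primed cells were lower, and their part in the falls of the Zfp genes was not tested.

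Labelling itself moved few Zfp genes, though the share called was above that of all genes. In DMSO, 24 h of s4U left 2 members higher and 1 lower than in unlabelled cells. This was 1.91% of members, against 0.513% of all genes. Only 1 call was left without DMSO replicate 1, DMSO replicate 3 or STM2457 replicate 2. Zfp365 held 24.4, 30.3, 24.7 and 31.1 CPM without s4U and 68.5, 80.2, 64 and 72.9 with it, a log2 difference of 1.37 (SE 0.172, adjusted p = 8.5e-08). Zfp703, a transcriptional co-repressor, held 7.49, 9.92, 13.4 and 5.46 without and 12.7, 13.2, 21.9 and 27.6 with s4U (1.05, adjusted p = 0.00582), with overlap. Zfp428 was lower by 0.51 (adjusted p = 0.00413). In STM2457 the same 3 genes and Zfp688 were called, 3 higher and 1 lower, which was 2.55% of members against 0.521% of all genes. The called fall of Zfp365 under STM2457 was measured in labelled cells, and in unlabelled cells its difference was −0.14 (adjusted p = 0.715).

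Genes that work with the Zfp proteins were read from gene lists. Of 20 co-repressor genes of the KRAB pathway, 2 were higher (Chd3 and Ehmt1) and 4 lower (Cbx3, Hdac2, Uhrf1 and Sumo2) on average over the chase, and Trim28, the direct partner of the KRAB box, stood at 0.04 (adjusted p = 0.779). Among the other C2H2 families, 11 of 34 Zbtb genes were higher and 0 lower, 5 of 16 Klf genes were higher and 1 lower, 2 of 11 Zscan genes and 2 of 10 Zkscan genes were higher, with 0 and 1 lower, and 2 of 22 genes with a Zfp name that ends in letters were higher. Together 22 of 93 were higher and 2 lower (25.8% called, against 26.5% of all genes). Of the Zfp genes at or under the coverage limit, 8 of 133 were higher and 10 lower. Of the 4 genes left out by name, 1 was higher. The marker lists gave 5 higher and 1 lower of 11 for pluripotent cells, 0 and 2 of 5 for primed cells, 0 and 1 of 5 for endoderm and mesoderm, 0 and 0 of 2 for feeders and 0 and 0 of 1 for 2-cell-like cells.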

How the data were processed

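QuantSeq 3′ FWD libraries, which read the 3′ ends of mRNAs with their strand, were made from 71 samples. The authors mapped and counted the reads with SLAM-DUNK on GRCm38.p6 (FastQC 0.11.8 is also named in the submitters' processing notes), let reads map to up to 100 positions, masked variants found in the unlabelled libraries and collapsed the 3′ UTR windows per gene. The deposited tables hold raw counts per gene (reads, multimapping reads, covered T positions and T-to-C conversions), and a deposited fraction, the conversion rate, which is conversions over covered T positions. No molecular identifiers are stated, so duplicate reads of the same molecule cannot be told apart. The p-values measure the spread between libraries, which exceeded counting error in every pair of replicates compared. Between 4539726 and 7368244 reads per library were counted. The chase times were taken from the study's methods, and groups from the labels.

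Reads were tested with edgeR 4.0.16 (R 4.3.3; TMM, filterByExpr, quasi-likelihood test, all 71 libraries, Benjamini-Hochberg adjustment over 12659 genes, threshold 0.01). Conversions were tested with edgeR on the 63 labelled libraries with log T coverage as offset (threshold 0.05). Half-lives were exponential fits through 1 at 0 h after subtraction of the unlabelled rate, kept where T coverage exceeded 100 and where, in each treatment, the estimate lay within 0.67 to 18 h with residual standard error no higher than 0.3, and compared between 8 series with limma 3.58.1 (threshold 0.05). Scripts used Python 3.11.15 with pandas 2.3.3, numpy 2.4.6, scipy 1.17.1 and matplotlib 3.10.9, and were tested on simulated data. Alternatives were DESeq2 1.42.0, other filters, scalings and time points, a replicate block, and each replicate number of each treatment left out with all its libraries. Proteins were translated from GENCODE M21 transcripts in place of the RefSeq proteins first planned, and 21383 genes were placed by symbol, 117 through RefSeq and 27 not.

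The members and gene lists were chosen with earlier results of these data known. Named were members with a textbook role, the 5 largest called rises and falls, the 3 longest and shortest half-lives, the members called for decay, the best covered and those at the coverage limit, the X-linked member, the 3 largest changes each way in the DMSO chase and with s4U, and members listed for a closer look. These are 59 members, and any other was named after its values were seen. Same-numbered libraries of the treatments did not deviate together, with correlations of −0.0771 to 0.27 over 35 pairs and 1 over 0.1, so the numbers were not taken as pairs.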

Additional observations from a re-analysis of the deposited data

Results flagged for a closer look

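In 78 groups of 4 libraries the highest or lowest library was tested for standing apart, and 5 did, where chance gives about 1 in 20. The share of reads on the Zfp genes was 0.511% in DMSO replicate 1 at 1 h and 0.589% in STM2457 replicate 1 at 12 h. Their pooled conversion rate was 0.761% in DMSO replicate 1 at 2.3 h and 0.234% in STM2457 replicate 3 at 5.3 h. Zfp141 stood at 47.4 CPM in STM2457 replicate 4 at 0 h, above the other 3 libraries of its group.

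The treatment effect on reads differed between time points by a test of the difference in edgeR for 9 genes. Between 0 and 12 h it changed by 0.979 log2 units for Zfp207 and by 1.12 for Zfp936. Per hour of chase the difference between STM2457 and DMSO changed by −0.128 log2 units for Zfp688, −0.114 for Zfp775, −0.0999 for Zfp952 and −0.0762 for Zfp365, all downward. It changed by 0.0790 for Zfp936, 0.0797 for Zfp296, 0.0874 for Zfp207, 0.0876 for Zfp866 and 0.0958 for Zfp65, all upward. Hours of chase and hours of STM2457 treatment advanced together and cannot be told apart.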

How the results depend on the processing

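The count of 53 Zfp genes called over the whole chase stayed between 45 and 52 with each replicate number of each treatment left out. Each such step removed all libraries of that number and treatment. The count was 52 by DESeq2 and 48 without 1.5 h, an alternative chosen after seeing the data. Smaller counts were less stable. Leaving out 1 replicate number of 1 treatment gave 2 to 5 calls at 0 h. These were 3 without DMSO replicate 4 or STM2457 replicate 2 or 3, and 2 without STM2457 replicate 4. At 12 h this step gave 8 to 13 (8 without DMSO replicate 4). Without s4U it gave 2 to 8 (2 without DMSO replicate 4 or STM2457 replicate 2, and 3 without STM2457 replicate 1). It gave 20 to 34 over the DMSO chase, 3 to 10 over the STM2457 chase (3 without STM2457 replicate 2, and 4 without each other STM2457 replicate) and 1 to 3 for s4U in DMSO (1 without DMSO replicate 1 or 3 or STM2457 replicate 2). With only the groups compared in the fit, 2 genes were called without s4U and 1 for s4U in DMSO. The decay calls were 0 to 3 (0 without DMSO replicate 3, and 1 without STM2457 replicate 1 or 2), and 1 without 3.5 h, 1 by limma on log2 rates and 1 with the replicate block. Zfp850 reversed to 0.0709 without 12 h and to 0.122 with only 0 to 5.3 h. The count at 0 h for conversions and that of limma on half-lives were 0 throughout.

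The median half-life in DMSO was 1.96 to 2.08 h with each replicate number left out and 1.84 h with a residual limit of 0.15. It was 1.91 h without 3.5 h and 2.29 h with no background subtraction. In STM2457 it was 2.25 to 2.41 h, 2.13 h and 2.74 h for the left-out replicates, the stricter limit and no subtraction. The median log2 change stayed between 0.149 and 0.237 with each replicate number left out. With the replicate block, 55 genes were called over the chase, 7 at 0 h, 15 at 12 h, 7 without s4U, 30 and 9 over the DMSO and STM2457 chases, and 3 for s4U. The numbers share no stated origin, and 1 of 35 same-numbered pairs had a correlation over 0.1. The cause of these changes was not tested. The spread between replicate series limits the decay of single Zfp genes: the median SD of log2 half-lives was 0.648 log2 units for members and 0.492 for all genes.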
